A study of Caenorhabditis elegans with 4 samples.

Results

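The 41 genes described here are the astacin metalloproteases of Caenorhabditis elegans together with genes of molting and of the outer cuticle layers. They were chosen by name: every nas, noah, mlt or fbn symbol followed by a number, and hch-1, dpy-31, toh-1, dpy-6, let-653, lpr-3, bli-4, bli-5, lin-42 and myrf-1. The WBcel235 annotation holds 58 gene entries with such names, of which 43 had a value in the deposited table. Of these, 41 reached at least 1 CPM (the deposited read-count signal, scaled between libraries) in at least 2 of the 4 libraries. These 41 stood among 12977 genes tested. By role they were 24 astacins, 6 apical or precuticle matrix proteins, 8 mlt genes, bli-4, and the regulators lin-42 and myrf-1. The remaining 15 entries, bli-5 and 14 astacin entries, were not analysed here. The 2 genes under the minimum were nas-4, with 0.676 and 0.194 CPM in mutant libraries against 0.503 and 2.56 CPM in wild-type libraries, and nas-22, with 1.28 and 0.907 CPM in mutant libraries against 0.817 and 0.472 CPM in wild-type libraries.

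Messenger RNA of whole early adult animals was sequenced from 2 libraries of fasn-1(g14) mutants (strain GG14) and 2 libraries of wild type (strain N2, Bristol), which the design text calls biological replicates. All 4 cultures had been held as L1 larvae without food for 8 days. They were then fed HT115 bacteria carrying an empty vector on plates with 25 µg/ml carbenicillin and 1 mM IPTG, at 20 °C, until eggs appeared after about 68 hours. The study asked how a mutation in fasn-1, the fatty acid synthase gene, shapes expression in adults after extended L1 arrest. Each genotype is 1 strain, so the allele and the rest of the strain's background cannot be told apart, and no fed animals enter the comparison. Replicates are numbered 3 and 4 in both genotypes, and paired values below are given in that order.

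A molt begins when the epidermis loosens from the old cuticle, secretes a new one under a temporary layer called the precuticle, and ends with ecdysis, the shedding of the old cuticle. Genes that serve molting are transcribed in pulses, once per larval stage, under nuclear receptors and the PERIOD-like protein LIN-42. Astacins are secreted zinc metalloproteases. Some of them digest the old cuticle or mature collagens, while others act in the pharynx, the hatching egg or the nervous system.

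Of the 41 genes, 11 fell and 0 rose in fasn-1(g14) animals (limma on log2(CPM + 1), adjusted p under 0.05). That is 26.8% of the members lower and 0% higher, beside 10.7% lower and 4.41% higher among all genes tested. nas-1 and nas-3 are among the 11, although they, with nas-12, passed the minimum through the wild-type libraries alone, so that a lower mutant value was built into their selection. Over genes that reached 1 CPM in at least 1 library of each genotype, 9 of 38 members fell, or 23.7%, beside 9.55% of 12269 genes. The 11 were the matrix genes dpy-6, lpr-3 and noah-2, the mlt genes mlt-7, mlt-8 and mlt-9, both regulators, and the astacins nas-1, nas-3 and nas-7. Outside the astacins 8 of 17 members fell, and among the astacins 3 of 24 fell. The astacin share of 12.5% was close to the background of 10.7%, and is no result about that family. At an unadjusted limma p under 0.05, 23 members were lower and 1 was higher. Of the 12977 genes tested, 2678 were lower and 1590 higher at that cut. With edgeR 8 fell and 0 rose, where 7.04% and 3.38% of all genes did. With DESeq2 7 fell and 0 rose, where 8.15% and 3.91% of all genes did.

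Both mutant libraries lay below both wild-type libraries for 29 of the 41 members, or 70.7%, while 32.9% of all genes tested did so. The 29 include nas-1, nas-3 and nas-12, whose separation was fixed in advance by the minimum of 1 CPM. Both mutant libraries lay above both wild-type libraries for 3 members, nas-37, nas-39 and bli-4, or 7.32%, while 31.2% of all genes did. The median change over the members was -0.66 on the log2(CPM + 1) scale, beside 0.00 over all genes tested, and 35 members had a change below 0. A change on this scale understates the fold of genes with few reads. In whole animals, fewer cells of a type and less RNA per cell cannot be told apart.

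Single libraries weighed on these counts. Without wild-type replicate 4 only 2 members fell, dpy-6 and lpr-3, and 0 rose, while 1.38% of all genes fell and 1.17% rose. Without wild-type replicate 3, 8 members fell and 0 rose, while 3.43% of all genes fell and 1.16% rose. Without mutant replicate 3 the count was 28 lower and 3 higher, while 25.2% of all genes were lower and 18.1% higher, and without mutant replicate 4 it was 15 lower and 1 higher, while 14% of all genes were lower and 7.68% higher. Each of these fits leaves 1 genotype with a single library, which is then assumed to vary like the other pair. No member that missed the threshold on all 4 libraries was called by edgeR or DESeq2. All 11 calls held without either mutant library. Of the 11, noah-2, mlt-8, mlt-9, lin-42 and myrf-1 lost the call without wild-type replicate 4, and nas-1, nas-3, nas-7 and mlt-7 lost it without either wild-type library in turn.

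**Figure D1:**
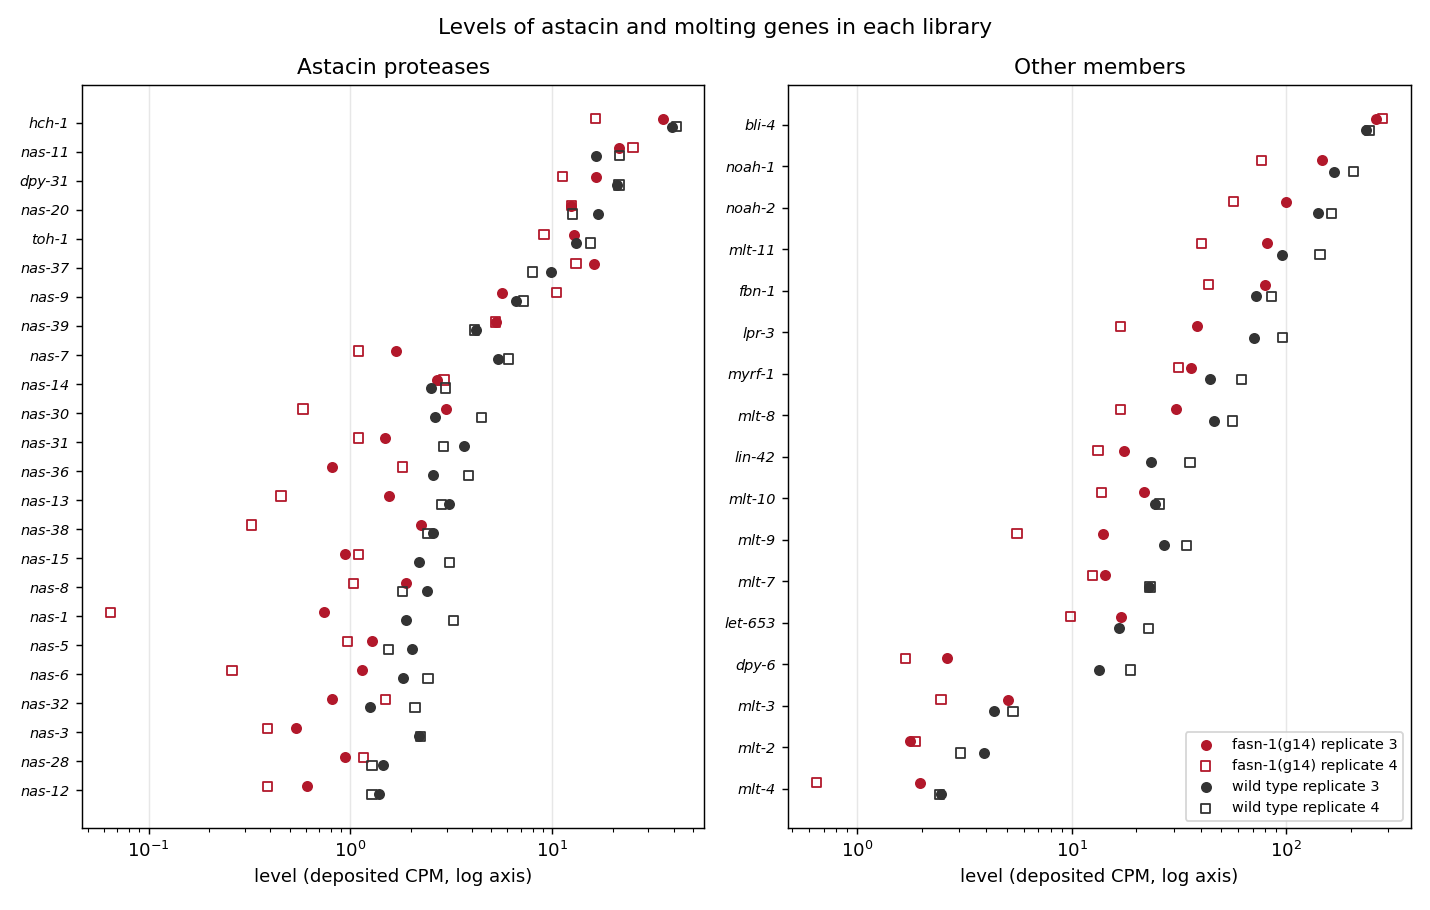
Deposited CPM of each of the 41 genes in each library, on log axes, with the 24 astacins on the left and the other 17 members on the right. Red symbols are fasn-1(g14) libraries and black symbols are wild-type libraries. The red square of mutant replicate 4 lies farthest to the left for most genes, and nas-37, nas-39 and bli-4 are the genes with both red symbols to the right of both black ones.

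The matrix proteins are secreted by epithelia that face the outside. Of the 6, 3 fell and 0 rose, with a median change of -0.90. dpy-6 encodes a mucin-like protein needed for normal body shape (chromosome X, 8450381 to 8455640, minus strand). It had 2.64 and 1.68 CPM in mutant libraries, against 13.4 and 18.8 CPM in wild-type libraries. Its mutant mean was 0.134 of the wild-type mean, with a change of -2.43 ± 0.27 (SE; limma adjusted p = 0.0051). The groups were far apart, and dpy-6 was the single member that passed the threshold under all 12 alternatives planned.

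lpr-3 encodes a lipocalin, a small carrier of lipid-like molecules that sits in the precuticle (X, 11057401 to 11059793, plus strand). It had 38.6 and 16.9 CPM in mutant libraries, against 70.6 and 96.1 CPM in wild-type libraries. The change was -1.65 ± 0.33 (SE; limma adjusted p = 0.0233), and DESeq2 did not call it. The groups did not overlap, and the mutant libraries differed from each other by a larger ratio than the wild-type libraries did.

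noah-1 and noah-2 encode zona pellucida domain proteins of the apical matrix, which anchor the epidermis to its cover during molting. They had the highest levels per length among the members, averaging 44.9 CPM per kb of exon for noah-2 and 39.3 CPM per kb for noah-1 over the 4 libraries. noah-2 (IV, 14091254 to 14096626, plus strand) had 100.3 and 56.8 CPM in mutant libraries, against 141.2 and 162.3 CPM in wild-type libraries. Its change was -0.99 ± 0.23 (SE; limma adjusted p = 0.0315), a call that DESeq2 did not make. noah-1 (I, 5874416 to 5878958, minus strand) had 146.7 and 76.6 CPM in mutant libraries, against 167.3 and 205.4 CPM in wild-type libraries. Its change of -0.80 ± 0.26 missed the threshold (SE; limma adjusted p = 0.0793), and it was called lower without mutant replicate 3 and without mutant replicate 4. Both noah genes were lower in every mutant library than in any wild-type library.

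fbn-1, a fibrillin-like matrix gene, and let-653, a zona pellucida gene of the precuticle, did not pass. fbn-1 (III, 7625386 to 7641078, plus strand) had 79.7 and 43.3 CPM in mutant libraries, against 72.7 and 85.3 CPM in wild-type libraries (change -0.42 ± 0.25, SE; limma adjusted p = 0.284). let-653 (IV, 11885613 to 11891082, plus strand) had 16.96 and 9.91 CPM in mutant libraries, against 16.7 and 22.9 CPM in wild-type libraries (change -0.56 ± 0.27, SE; limma adjusted p = 0.192). In both genes mutant replicate 3 lay inside the wild-type range and mutant replicate 4 lay below it. Without mutant replicate 3 both were called lower.

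The mlt genes were named for the molting defects seen when their function is lost, and 3 of 8 fell, 0 rose and the median change was -0.70. mlt-9 (X, 15101786 to 15107797, minus strand) had 14.1 and 5.57 CPM in mutant libraries, against 26.95 and 34.4 CPM in wild-type libraries. Its change was -1.66 ± 0.36 (SE; limma adjusted p = 0.0269). For mlt-8 (II, 569210 to 572110, minus strand) the values were 30.7 and 16.97 CPM in mutant libraries, against 45.9 and 56.1 CPM in wild-type libraries. Mutant replicate 4 was the lowest library for both genes, and the groups did not overlap. The change of mlt-8 was -1.12 ± 0.25 (SE; limma adjusted p = 0.0296).

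mlt-7 encodes a secreted peroxidase that crosslinks cuticle proteins (II, 4393007 to 4404850, plus strand). It had 14.3 and 12.6 CPM in mutant libraries, against 22.9 and 23.2 CPM in wild-type libraries. The replicates lay close together in both genotypes, and the change was -0.74 ± 0.15 (SE; limma adjusted p = 0.0247).

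Among the other mlt genes, mlt-11 encodes a secreted protein with Kunitz domains, a fold found in protease inhibitors (V, 20667205 to 20678537, plus strand). It had 81.6 and 40.2 CPM in mutant libraries, against 96.1 and 143.9 CPM in wild-type libraries. The change of -1.02 ± 0.31 missed the threshold (SE; limma adjusted p = 0.0647), although the groups did not overlap, and it was called lower without mutant replicate 3, without mutant replicate 4 and without wild-type replicate 3. mlt-10 encodes a secreted protein made by the epidermis around each molt (II, 546705 to 552032, plus strand). It had 21.7 and 13.8 CPM in mutant libraries, against 24.4 and 25.6 CPM in wild-type libraries, and missed the threshold (change -0.51 ± 0.21, SE; limma adjusted p = 0.143). Its exons share 109 bases with lips-7 on the same strand, or 4.66% of its exon length, and reads there cannot be told apart. mlt-2, mlt-3 and mlt-4 encode ankyrin-repeat partners of the NEKL kinases in epidermal endocytosis, and their changes of -0.66, -0.34 and -0.64 did not pass.

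bli-4 encodes a proprotein convertase of the kexin family that trims cuticle collagens and other secreted proteins (I, 6342224 to 6356680, plus strand). It stood apart from the matrix genes, with 261.6 and 280.6 CPM in mutant libraries, against 235.9 and 244.9 CPM in wild-type libraries. The groups did not overlap, but the change of 0.17 ± 0.07 missed the threshold (SE; limma adjusted p = 0.158). Without mutant replicate 3 it was called higher. Its level per length averaged 35.8 CPM per kb in mutant libraries and 31.8 CPM per kb in wild-type libraries.

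Both regulators fell, each close to the threshold. LIN-42, related to the clock protein PERIOD, sets the rhythm of the molts (II, 1233236 to 1252359, minus strand). Its gene had 17.6 and 13.3 CPM in mutant libraries, against 23.4 and 35.6 CPM in wild-type libraries, a change of -0.87 ± 0.23 (SE; limma adjusted p = 0.0427). myrf-1 encodes a membrane-anchored transcription factor needed for larval progression (II, 10496987 to 10502541, minus strand). It had 36.1 and 31.5 CPM in mutant libraries, against 44.0 and 62.1 CPM in wild-type libraries, a change of -0.62 ± 0.17 (SE; limma adjusted p = 0.0492). Wild-type replicate 4 was the highest library for both genes. Neither was called by edgeR, without wild-type replicate 4, with a pseudocount of 0.1 CPM or with a minimum mean of 5 CPM.

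**Figure D2:**
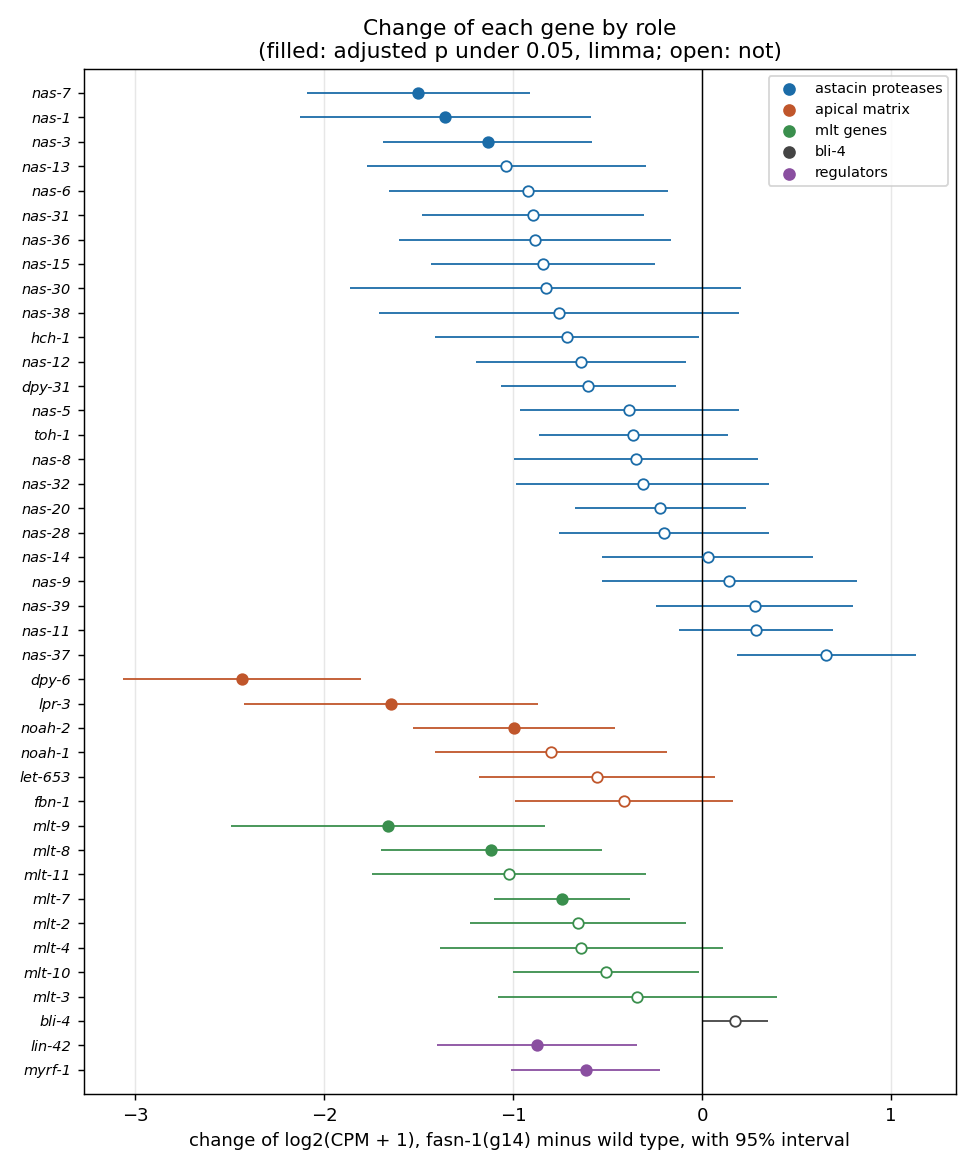
Change of each gene on the log2(CPM + 1) scale, fasn-1(g14) minus wild type, with its 95% interval from limma, grouped and coloured by role. Filled points passed an adjusted p of 0.05. All 11 filled points lie to the left of 0, from myrf-1 at -0.62 to dpy-6 at -2.43, and nas-37 at 0.66 lies farthest to the right.

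Most astacins were scarce. Their median level was 1.22 CPM per kb of exon, beside 12.9 CPM per kb over all genes tested, 17.1 for the matrix genes and 8.20 for the mlt genes. Of the 20 members that averaged under 5 CPM, 17 were astacins. In these libraries 1 read was worth 0.0628 to 0.0676 CPM, and nas-28, at 0.946 CPM in mutant replicate 3, rested on 14 reads there.

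The astacins that fell were of that kind. nas-7 (II, 7400545 to 7402725, minus strand) had 1.69 and 1.10 CPM in mutant libraries, against 5.40 and 6.07 CPM in wild-type libraries, or 25 and 17 reads against 86 and 90 reads. Its change was -1.50 ± 0.25 (SE; limma adjusted p = 0.0151). nas-1 (III, 13405804 to 13409292, plus strand) had 11 and 1 reads in mutant libraries, against 30 and 48 reads in wild-type libraries. Its change of -1.36 ± 0.33 (SE; limma adjusted p = 0.0359) was not called by edgeR or DESeq2. nas-3 (V, 9478163 to 9479601, plus strand) had 8 and 6 reads in mutant libraries, against 35 and 33 reads in wild-type libraries. Its change was -1.14 ± 0.24 (SE; limma adjusted p = 0.0249), and DESeq2 did not call it. No mutant library reached the lower wild-type library for any of the 3 genes. For nas-1 and nas-3 the minimum fixed this in advance, so only nas-7 could have shown an overlap. nas-12, the other that passed the minimum through wild type alone, did not pass the test (change -0.64 ± 0.24, SE; limma adjusted p = 0.109). Of the 24 astacins, 2 fell with edgeR, where 7.04% of all genes did, and 1 fell with DESeq2, where 8.15% did. The astacin counts that follow stand beside the shares of all genes given above for the same omissions. Without wild-type replicate 3 or wild-type replicate 4, 0 fell, and without mutant replicate 3, 13 did.

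nas-36 and nas-37 encode the astacins best known for ecdysis, since animals lacking either fail to shed the old cuticle cleanly. They lay on opposite sides of 0. nas-37 (X, 9944844 to 9949063, minus strand) had 16.2 and 13.1 CPM in mutant libraries, against 9.86 and 8.03 CPM in wild-type libraries. Both mutant libraries were above both wild-type libraries, and the change of 0.66 ± 0.20, with a 95% interval of 0.18 to 1.13, missed the threshold (SE; limma adjusted p = 0.0682). With a library left out in turn its change ran from 0.51 to 0.80, and edgeR and DESeq2 on all 4 libraries did not call it. nas-36 (I, 7527224 to 7531715, plus strand) had 0.811 and 1.81 CPM in mutant libraries, against 2.58 and 3.85 CPM in wild-type libraries. Its groups did not overlap, and its change of -0.88 ± 0.31 missed the threshold (SE; limma adjusted p = 0.0925). Without mutant replicate 4 it was called lower.

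dpy-31 encodes a procollagen C-proteinase needed to mature cuticle collagen (III, 7202206 to 7207664, plus strand). It had 16.4 and 11.3 CPM in mutant libraries, against 20.9 and 21.5 CPM in wild-type libraries (change -0.60 ± 0.20, SE; limma adjusted p = 0.0806). hch-1 encodes the hatching protease that softens the eggshell (X, 14696411 to 14699977, minus strand). It had 35.3 and 16.4 CPM in mutant libraries, against 39.3 and 41.2 CPM in wild-type libraries (change -0.71 ± 0.30, SE; limma adjusted p = 0.144). It was the most abundant astacin, with 13.3 CPM per kb in mutant libraries and 20.8 CPM per kb in wild-type libraries. In both genes every mutant library was below the wild-type pair, and both were called lower without mutant replicate 3.

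Other astacins have described roles away from ecdysis. nas-6 serves the grinder of the pharynx (IV, 17486842 to 17490779, minus strand), and had 1.15 and 0.259 CPM in mutant libraries against 1.82 and 2.43 CPM in wild-type libraries (change -0.92 ± 0.31, SE; limma adjusted p = 0.0886). nas-38 acts in the sleep-like state that accompanies each molt (X, 558157 to 563708, plus strand), and had 2.23 and 0.324 CPM in mutant libraries against 2.58 and 2.43 CPM in wild-type libraries (change -0.76 ± 0.41, SE; limma adjusted p = 0.238). nas-38 lay near wild type in mutant replicate 3 and far below it in mutant replicate 4, and both genes were called lower without mutant replicate 3. nas-39 resembles the tolloid proteases of other animals (X, 16456927 to 16471333, plus strand). It had 5.27 and 5.24 CPM in mutant libraries, against 4.21 and 4.11 CPM in wild-type libraries (change 0.28 ± 0.22, SE; limma adjusted p = 0.43). Its exons share 276 bases with F38E9.1 on the same strand, or 7.93% of its exon length.

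Among the other astacins, the changes that did not pass ran from -1.04 in nas-13 to 0.28 in nas-11. nas-13, nas-31 and nas-15 had adjusted p-values between 0.0524 and 0.0653 in limma, with changes of -1.04, -0.90 and -0.84, and no overlap between the genotypes. nas-14, nas-9 and nas-28 lay nearest to 0, at 0.03, 0.14 and -0.20.

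The 2 mutant libraries were unequal for these genes. Relative to the wild-type mean, the members' median lay at -0.35 in mutant replicate 3 and at -0.85 in mutant replicate 4, beside 0.00 in both for all genes tested. Mutant replicate 4 was below mutant replicate 3 for 31 of 41 members, or 75.6%, against 51.9% of all genes. In wild type, replicate 4 was above replicate 3 for 29 members, or 70.7%, against 55.3% of all genes. The median distance between the replicates was 0.51 in mutants and 0.25 in wild type for the members, and 0.19 in mutants and 0.12 in wild type for all genes. All 6 matrix genes and 7 of 8 mlt genes were lower in mutant replicate 4 than in mutant replicate 3, as were 16 of 24 astacins. In both genotypes that distance was larger for the members than for all genes.

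**Figure D3:**
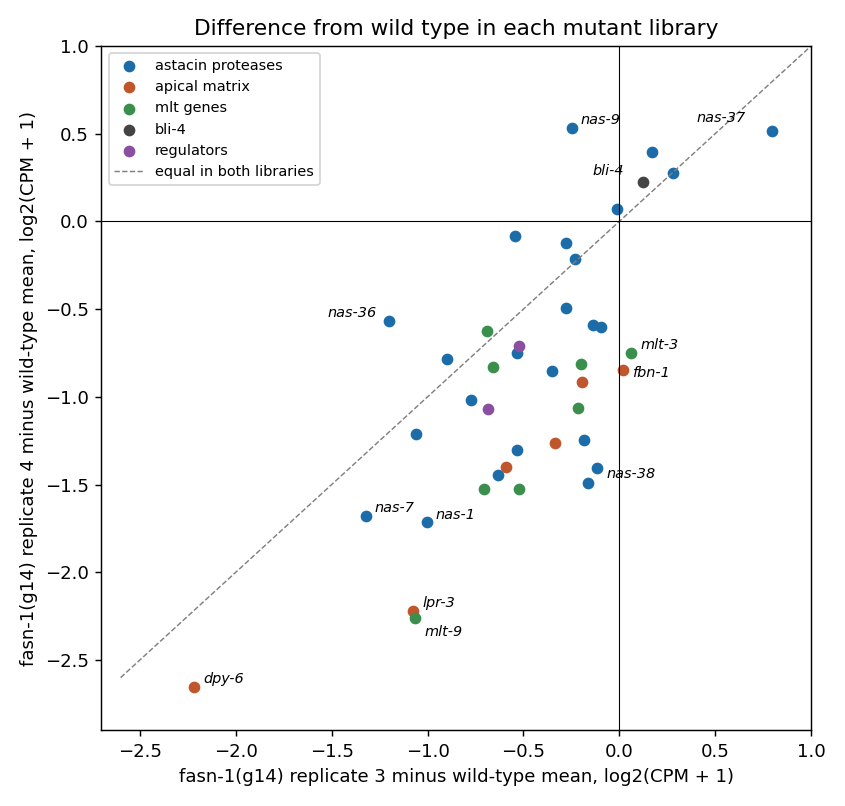
Difference of each gene from the wild-type mean on the log2(CPM + 1) scale, in mutant replicate 3 (horizontal) and mutant replicate 4 (vertical), with points coloured by role and a dashed line where both are equal. Of the 41 points, 31 lie below the dashed line. dpy-6 is low in both libraries, while fbn-1, mlt-3 and nas-38 are near 0 in replicate 3 and low in replicate 4.

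Tissue and stage markers moved in the same libraries, and their limma counts on all 4 libraries stand beside 10.7% of all genes lower and 4.41% higher. Counts with a library left out, or from edgeR or DESeq2, stand beside the shares of all genes given above for the same fit. The epidermal list, for the tissue that makes the cuticle, had 2 of 10 tested markers lower and 0 higher, with none at 0 in any library. The 2 were wrt-2 and dpy-7, with changes of -1.80 and -1.37. All 10 changes lay below 0, and those of lin-26 and elt-1 were nearest to it, at -0.03 and -0.13. The list's summed level was 326 and 248 CPM in mutant libraries, against 374 and 405 CPM in wild-type libraries. Relative to the wild-type mean, the median marker of the list lay at -0.32 in mutant replicate 3 and at -0.95 in mutant replicate 4. edgeR and DESeq2 each called 1 epidermal marker lower, and the count was 0 without wild-type replicate 4, 9 without mutant replicate 3 and 3 without mutant replicate 4.

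Pharyngeal muscle markers fell in 6 of 7, with 288 and 132 CPM summed in mutant libraries, against 1109 and 1203 CPM in wild-type libraries. edgeR and DESeq2 also called 6, and 6 or 7 fell with each library left out in turn. Pharyngeal gland markers fell in 5 of 6, with 33.8 and 15.02 CPM summed in mutant libraries, against 76.1 and 82.8 CPM in wild-type libraries. For the gland edgeR called 2 and DESeq2 3, and the count was 1 when wild-type replicate 3 was left out and 0 when wild-type replicate 4 was. Neuronal markers fell in 8 of 10, with 419.5 and 341 CPM summed in mutant libraries, against 595 and 634 CPM in wild-type libraries, and the count was 4 without wild-type replicate 4. No tested marker of the pharyngeal and neuronal lists was at 0 in any library.

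In the adult cuticle list 1 of 6 rose and 0 fell. The riser, col-19, is a collagen made after the last molt. It had 692 and 827 CPM in mutant libraries, against 369 and 293 CPM in wild-type libraries. Over the list 5 changes lay above 0 and 1 below, that of rol-6. There mutant libraries had 1.69 and 3.30 CPM, against 4.21 and 7.76 CPM in wild-type libraries. That change of -0.99 missed the threshold (limma adjusted p = 0.0939), although the groups did not overlap. The other 6 lists were for intestine, body wall muscle, excretory system, early embryo, sperm, and gonad with uterus and vulva. Of these, intestine had 4 of 10 higher and sperm 3 of 6, or 40% and 50%, with 0 lower in each. edgeR called 4 and 2 higher in these 2 lists, and DESeq2 called 5 and 2. Per list of the 6, 0 to 3 markers fell and 0 to 4 rose. Those ranges were 0 to 2 lower and 0 to 2 higher without wild-type replicate 3 or without wild-type replicate 4, and 0 to 4 lower and 0 to 6 higher without mutant replicate 3. The marker lists share egl-3, lpr-1, wrt-10, che-14, elt-3, bli-1 and bli-2 with the lists of further molting genes. The part of any of these marker lists in the results for astacin and molting genes was not tested.

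The pathway's other genes were followed in 4 lists, of which 79 of 85 genes were tested. Of these 18 fell and 3 rose, or 22.8% and 3.80%, beside 10.7% and 4.41% of all genes, and the median change was -0.29. edgeR called 11 lower and 3 higher, and DESeq2 called 13 lower and 3 higher. Without wild-type replicate 4 the counts were 4 lower and 1 higher, the 4 being lin-14, egl-3, cut-2 and cut-3, beside 1.38% of all genes lower and 1.17% higher. Without wild-type replicate 3 they were 11 lower and 0 higher, beside 3.43% and 1.16%. Without mutant replicate 3 they were 41 lower and 7 higher, beside 25.2% and 18.1%.

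Among timing and transcription factors of molting 5 of 20 fell, 0 rose and the median change was -0.25. The shares were 25% and 0%, beside 10.7% and 4.41% of all genes. lin-14, which holds larvae in their first stage-specific programme, had 47.4 and 26.9 CPM in mutant libraries, against 87.3 and 95.8 CPM in wild-type libraries (change -1.33 ± 0.23, SE; limma adjusted p = 0.0156). grh-1, the Grainyhead factor of the epidermis, changed by -1.46, the nuclear receptors nhr-91 and daf-12 by -1.34 and -0.62, and pan-1, a membrane protein that binds MYRF proteins, by -0.65. nhr-23, the receptor that drives each molt, had 86.2 and 94.7 CPM in mutant libraries, against 87.6 and 82.8 CPM in wild-type libraries. Those groups overlapped, and the change of 0.08 ± 0.09 did not pass (SE; limma adjusted p = 0.549).

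Of 16 genes of endocytosis, NEKL kinases and sterol or Hedgehog-related traffic 3 fell and 0 rose, with a median change of -0.54. The shares were 18.75% and 0%, beside 10.7% and 4.41% of all genes, and so small a count is no result about the list. The Hedgehog-related gene qua-1 had 15.8 and 11.9 CPM in mutant libraries, against 29.7 and 39.3 CPM in wild-type libraries (change -1.25 ± 0.20, SE; limma adjusted p = 0.0127). The patched-related membrane protein genes ptr-4 and ptr-18 changed by -1.70 and -1.32. nekl-2 and nekl-3, the kinases bound by the products of mlt-2, mlt-3 and mlt-4, had differences of -0.42 and 0.02 that did not pass.

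In the list of cuticle crosslinking, collagen processing and apical matrix genes 7 of 24 fell, 1 rose and the median change was -0.42. That is 29.2% lower and 4.17% higher, beside 10.7% and 4.41% of all genes. The cuticlin genes cut-2 and cut-3 changed most, and cut-2 had 105.5 and 24.4 CPM in mutant libraries, against 256.4 and 271.1 CPM in wild-type libraries (change -2.35 ± 0.54, SE, limma adjusted p = 0.0315). Neither gene was called by edgeR, by DESeq2 or with a minimum mean of 5 CPM. cut-5, cut-6, lpr-1 and doxa-1, the maturation factor of the dual oxidase, changed by -1.27, -1.54, -1.45 and -1.07. sym-1, a leucine-rich repeat gene of the matrix, was the other that fell, at -0.90. The collagen gene bli-6 rose by 1.29 on the log2(CPM + 1) scale. edgeR called 1 of the 24 lower, where 7.04% of all genes were, and DESeq2 called 3, where 8.15% were. With edgeR this list therefore showed no excess of lower genes.

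Among other secreted proteases and protease inhibitors 3 of 19 fell, 2 rose and the median change was -0.03. These shares of 15.8% and 10.5% stand beside 10.7% and 4.41% of all genes, and such small counts are no result about the list. egl-3, a prohormone convertase of neurons, had 47.8 and 37.04 CPM in mutant libraries, against 98.0 and 100.3 CPM in wild-type libraries (change -1.22 ± 0.13, SE; limma adjusted p = 0.0042). The ADAMTS protease gene gon-1 and the cathepsin gene cpz-2 changed by -0.45 each. cpz-1 and cpl-1, cathepsin genes with a part in molting, rose by 0.60 and 0.49.

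**Figure D4:**
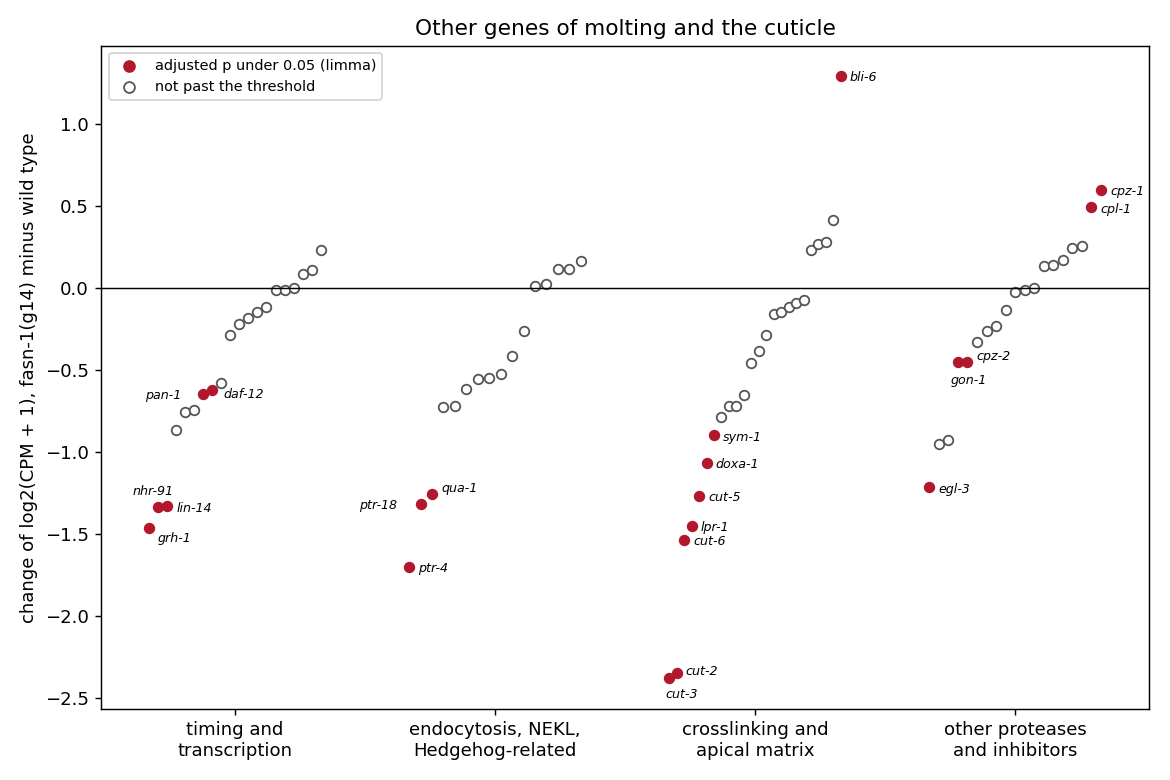
Change on the log2(CPM + 1) scale, fasn-1(g14) minus wild type, of the 79 tested genes of 4 further lists of molting and cuticle genes, ordered by size within each list. Filled red points passed an adjusted p of 0.05 in limma and are named, 18 of them below 0 and 3 above.

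The members were spread over the genome. The X chromosome held 10 of the 41, or 24.4%, while it held 14.9% of all genes tested. The members' exons had a median length of 2066 bases, beside 1429 bases for all genes tested, and their median level was 3.31 CPM per kb, beside 12.9.

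Over the table as a whole, the libraries held 13960509 to 15889424 reads. The first principal component, which separated the genotypes, carried 83.5% of the variance. On it the mutant libraries lay at -17.5 and -49.9 and the wild-type libraries at 29.8 and 37.6. That share therefore also holds the difference between the mutant replicates. fasn-1 itself had 353 and 285 CPM in mutant libraries, against 369 and 410 CPM in wild-type libraries (change -0.29 ± 0.11, SE; limma adjusted p = 0.12), and the labels do not say what g14 changes, so its RNA level does not check the genotype.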

How the data were processed

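The values, which the authors call CPM, were taken as a deposited read-count signal already scaled between libraries; column sums lie between 941734 and 1028879. The tools named for that step are HTSeq 0.12.4, edgeR 3.28.1 and the aligner Bowtie2 2.3.3.1 (submitters' processing notes); the genome build is not given in the sources used here. Per the labels' protocols, libraries came from 1 µg of total RNA, with 8 PCR cycles and a kit that does not mark strand, so the strand of a read does not separate overlapping genes; how such reads were counted is not given in the sources used here. Values were whole multiples of 1 read within 0.001 in 100% of cases, and the recovered reads served edgeR and DESeq2 alone. Another 8 library columns were not used.

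Sequence names were matched to WBcel235 (Ensembl 115), whose positions are printed. Of 13758 names 13747 matched 1 gene, 3 were ambiguous and 8 matched none. The 781 genes under 1 CPM in more than 2 libraries were left out, and 12977 were tested with limma 3.58.1 in R 4.3.3 on log2(CPM + 1), with a mean-variance trend, no covariates, two-sided, Benjamini-Hochberg adjusted over all of them. Alternatives were pseudocounts of 0.1 and 5 CPM, other filters, recomputed TMM factors, edgeR 4.0.16, DESeq2 1.42.0, a replicate block and leaving out each library. The members, lists and the rule for genes described in full (members past the threshold, the 6 of highest CPM per kb and those with a molting role) were chosen with earlier results of these data known. Errors and intervals rest on 2 libraries per genotype.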

Additional observations from a re-analysis of the deposited data

How the results depend on the processing

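The count of 11 members lower was 4 of the 21 tested with a minimum mean of 5 CPM, beside 5.55% of all genes. There nas-1, nas-3 and nas-7 were not tested, and noah-2, mlt-8, lin-42 and myrf-1 were tested and lost the call. The count was 7 with DESeq2, beside 8.15% of all genes. It lay between 8 and 13 under the other pseudocounts, no filter, recomputed TMM factors and edgeR, beside 6.85% to 12.2% of all genes. No member was higher in any of these. Leaving out single libraries gave 2 to 28 members lower and 0 to 3 higher. The same omissions gave 4 to 41 genes lower and 0 to 7 higher in the further molting lists, and 179 to 3268 lower and 151 to 2346 higher among all genes. In those lists 8 fell with a minimum mean of 5 CPM and 11 with edgeR, where 5.55% and 7.04% of all genes did, against 18 in the main fit. Among all 12977 genes tested, 1386 fell and 572 rose in the main fit. With a pseudocount of 0.1 CPM 889 of them fell, and with edgeR 913. A minimum mean of 5 CPM left 9166 genes, of which 509 fell and 288 rose, or 5.55% and 3.14%. The cause was not tested. No scaling moved the median of all genes by over 0.1. The replicate numbers are not said to mark a shared batch, and the deviations of same-numbered libraries correlated at -0.21. A replicate block gave 18 members lower, the 11 among them, beside 14.4% of all genes lower and 4.82% higher. Crossed pairing, chosen after seeing the data, gave 20 members lower and 1 higher. It gave 29 and 5 in the further lists, and 2310 and 1197 among all genes. Single changes reversed for nas-14 (-0.060 without wild-type replicate 3, -0.012 without mutant replicate 4, up to 0.12 in the other omissions) and, without mutant replicate 4, for nas-9 (-0.25 to 0.53 over the omissions), fbn-1 (-0.85 to 0.018) and mlt-3 (-0.75 to 0.063), none of which had passed. Most astacins rest on few reads, and a missed threshold does not show that they were equal in both genotypes.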

Other observations

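The kit does not mark strand, and 15 members share exon bases with another annotated gene. nas-13 shares 17 bases, or 1.01% of its exon length, with F39D8.3 on the opposite strand, which fell, with 0.541 and 0.907 CPM in mutant libraries against 2.39 and 2.23 CPM in wild-type libraries (change -0.95; limma adjusted p = 0.0436). lips-7, which overlaps mlt-10, had 1.76 and 0.583 CPM in mutant libraries, against 2.89 and 4.99 CPM in wild-type libraries (change -1.21; limma adjusted p = 0.058). F38E9.1, which overlaps nas-39, had 18.99 and 17.2 CPM in mutant libraries, against 13.9 and 10.7 CPM in wild-type libraries (change 0.53; limma adjusted p = 0.0933). The part of reads from these neighbours in the members' values was not tested.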
